A study of Mus musculus with 12 samples.

Results

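The expression of 10 smooth muscle contractile genes, chosen by name from the 22180 genes measured, was compared in mouse embryonic lung at E14.5, with RNA taken from the whole organ. They are Myocd, Acta2, Tagln, Cnn1, Myh11, Smtn, Actg2, Des, Lmod1 and Synpo2. The choice was made with earlier results of these data known. Each was represented by its brightest probe set with a single gene symbol, and all 10 were measured. The Yy1 mutants were Shh+/Cre;Yy1flox/flox, the Dicer mutants were Shh+/Cre;Dicerflox/flox and the controls were Shh+/Cre, with 4 arrays per genotype. All 3 genotypes therefore carried 1 Shh allele with Cre, and differed in the floxed gene. Cre made from the Shh locus is active in cells that express Shh, which in the lung is the epithelium, whereas airway smooth muscle comes from the mesenchyme. In which cells Yy1 or Dicer was lost was not measured. The labels give no litter, sex or culture, so p-values measure only the spread between these specimens.

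Airway smooth muscle wraps the growing bronchi in rings that form behind the branching tips. Its differentiation follows signals from the epithelium, Shh among them, and runs through serum response factor, which binds CArG boxes in the promoters of contractile genes. Myocardin, encoded by Myocd, is a coactivator of serum response factor that is found in smooth muscle and heart and raises the transcription of many contractile genes. In the usual order of smooth muscle maturation Acta2 and Tagln appear early, Cnn1 follows and Myh11 and Smtn mark late cells. The other 4 genes were not assigned to a stage.

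Promoter windows are shown for an early gene, Acta2, and for the intermediate gene, Cnn1, because they carry the contrast described below between a small and a large change. Windows for 6 of the 10 genes (Acta2, Cnn1, Des, Lmod1, Synpo2 and Smtn) were matched by symbol in RefSeq (GRCm38.p6), each running from 250 bases before the start site to 50 after it. The CArG box was searched on both strands as CC, then 6 bases that are A or T, then GG, and again with up to 1 of those 6 middle bases allowed to be G or C. The exact box occurred in 1.63% of 32851 mouse promoter windows, and a box with up to 1 change in 9.98%. Of the 6 windows, 1 held such a box, that of Acta2, with 2 boxes of 1 change each. They began 84 and 34 bases before the start site used for this window and are in capitals, and the Cnn1 window held no match. The RefSeq gene record of Acta2, on the minus strand, begins at base 34255585, another position within the window. The 2 distances thus hold for the start site of the window only.
Acta2, chr19:34255324-34255623, minus strand: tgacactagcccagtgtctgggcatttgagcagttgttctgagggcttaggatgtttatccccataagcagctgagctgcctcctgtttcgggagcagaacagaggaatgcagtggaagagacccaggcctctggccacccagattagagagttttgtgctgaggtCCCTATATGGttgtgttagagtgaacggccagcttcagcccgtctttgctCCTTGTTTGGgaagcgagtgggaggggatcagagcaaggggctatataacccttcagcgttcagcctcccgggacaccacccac
Cnn1, chr9:22099003-22099302, plus strand: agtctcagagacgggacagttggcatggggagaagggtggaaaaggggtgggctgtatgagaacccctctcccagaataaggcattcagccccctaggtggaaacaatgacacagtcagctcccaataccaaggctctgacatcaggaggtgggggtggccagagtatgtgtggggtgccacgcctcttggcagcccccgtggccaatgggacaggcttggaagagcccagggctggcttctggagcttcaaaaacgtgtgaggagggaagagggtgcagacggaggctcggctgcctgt
A match describes letters in this window only.

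Contractile genes were lower in both mutants, and by very unequal amounts. In Yy1 mutants 7 of the 10 were called lower than in controls (limma, p under 0.05 after Benjamini-Hochberg adjustment across the 22180 genes), where 3.84% of all genes were called lower and 6.61% in either direction. In Dicer mutants 8 of the 10 were called lower, where 3.97% of all genes were called lower and 8.75% in either direction. On 9 of the 10 genes all 4 mutant arrays lay below all 4 controls in each comparison, as they did for 7.05% of all genes in Yy1 mutants and 8.45% in Dicer mutants. Because the genes were chosen with earlier results known, these counts are a description, and setting them beside the shares is not a test. The Myh11, Cnn1, Myocd, Actg2 and Synpo2 transcripts fell by at least 2-fold in each comparison. Acta2 and Tagln fell by less, and Des and Smtn were not called in either. The median log2 difference over the 10 genes was -1.03 in Yy1 mutants and -0.88 in Dicer mutants, against 0.00 and -0.03 over all genes. In RNA from whole lung, fewer smooth muscle cells and less RNA per cell cannot be told apart. Both comparisons use the same 4 controls.

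A few facts of the series touch these values. Array medians lay between 5.99 and 6.08 on the log2 scale. Dicer1 was lower in Dicer mutants by 0.61 (SE 0.0953, adjusted p = 0.00127). Yy1 differed by -0.19 in Yy1 mutants (SE 0.068, adjusted p = 0.125), in RNA that also holds the cells outside the Cre domain. The Y-linked gene Eif2s3y read 7.99 in Yy1 mutant 2, 5.92 in Yy1 mutant 3 and 7.84 in Dicer mutant 4, against 3.73 to 4.48 in controls. The X-linked gene Xist read 8.55, 11.11 and 9.64 in the same arrays, against 11.15 to 11.31 in controls. All 3 were mutants, so this signal was uneven between the genotypes. Without these 3 arrays, called high-Eif2s3y arrays below, the contractile genes called lower numbered 7 in Yy1 mutants and 6 in Dicer mutants, while calls over all genes in either direction fell to 606 in Yy1 mutants, against 1465 with every array, and to 976 in Dicer mutants, against 1940. That fit kept only Yy1 mutants 1 and 4 and Dicer mutants 1, 2 and 3. The number of arrays thus fell as well, and its part in the lost calls was not tested.

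Myocd, the coactivator, read 7.51, 7.60, 7.34 and 6.85 on the log2 scale in Yy1 mutants, 6.44, 6.98, 7.62 and 7.39 in Dicer mutants, and 9.19, 8.91, 9.0 and 8.96 in controls. All 8 mutant arrays lay below all 4 controls, and the gap between the groups was wider than the spread within any of them. Its level was 3.23-fold lower in Yy1 mutants (log2 difference -1.69, SE 0.217, adjusted p = 0.000313) and 3.74-fold lower in Dicer mutants (log2 difference -1.90, adjusted p = 0.000114). Controls were tight, with an SD of 0.122, and Dicer mutants the most spread, with an SD of 0.519.

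Among all genes measured, 16 fell by as much as Myocd or more in Yy1 mutants (0.0721%), counting Myocd itself, and Myh11, Cnn1 and Actg2 were among them. In Dicer mutants 9 genes did so (0.0406%), Myh11 and Cnn1 among them.

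**Figure D1:**
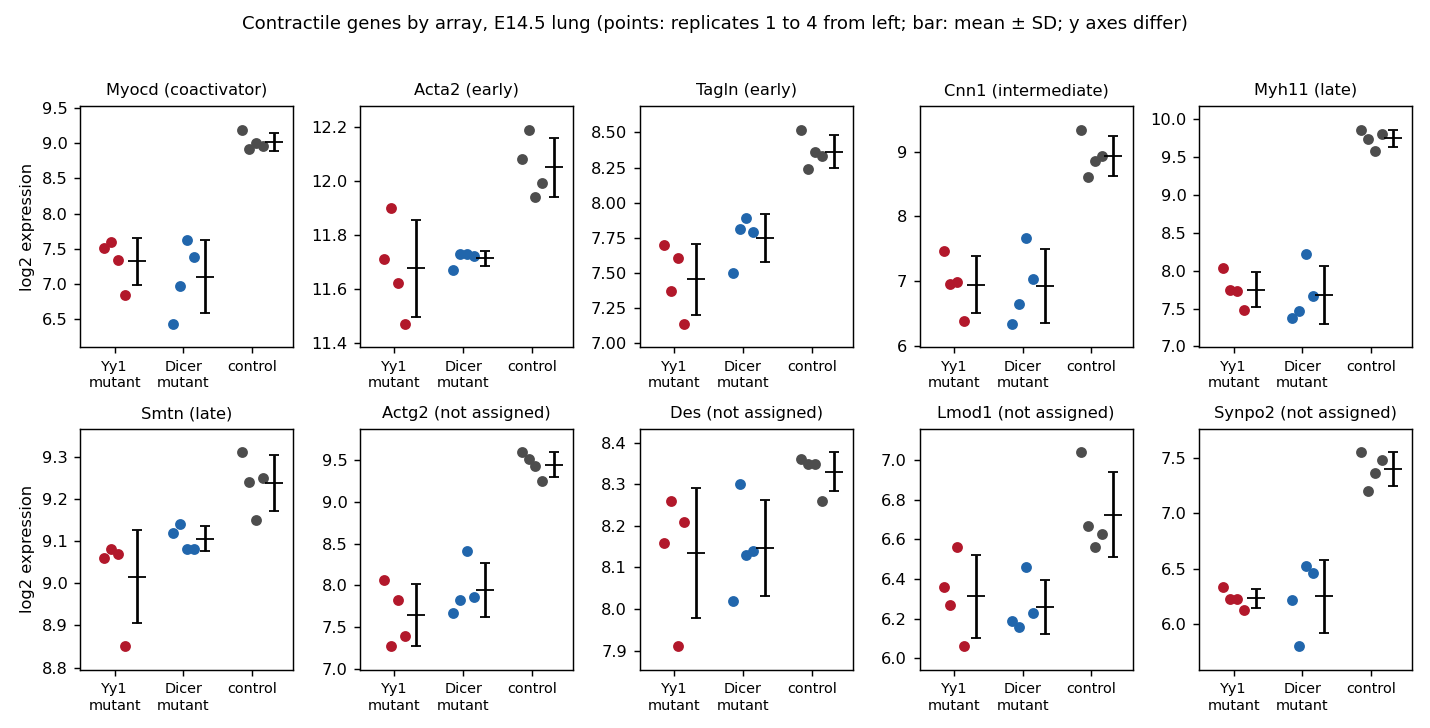
Log2 expression of each contractile gene on the 12 arrays, with Yy1 mutants (red), Dicer mutants (blue) and controls (grey) from left to right, points for single arrays and bars for the mean ± SD of 4; the y axes differ between genes. Mutant arrays lie well below controls for Myocd, Cnn1, Myh11, Actg2 and Synpo2, whereas those of Des overlap with controls.

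The early genes fell by less than Myocd. Acta2, the smooth muscle alpha actin, read 11.71, 11.90, 11.62 and 11.47 in Yy1 mutants, 11.67, 11.73, 11.73 and 11.72 in Dicer mutants, and 12.08, 12.19, 11.94 and 11.99 in controls. The groups did not overlap, but the highest Yy1 mutant array and the lowest control were close. Acta2 fell 1.30-fold in Yy1 mutants (log2 difference -0.38, SE 0.0875, adjusted p = 0.0182) and 1.27-fold in Dicer mutants (-0.34, adjusted p = 0.0264). The call in Yy1 mutants was lost without Yy1 mutant 3 (adjusted p = 0.0569), Yy1 mutant 4 (0.0521) or control 2 (0.0502), and in a fit of the 2 groups alone (0.0556). The call in Dicer mutants was lost without any 1 of the 4 Dicer mutant arrays, without control 1 or without control 2, at adjusted p of 0.0566 to 0.0657, and without the 3 high-Eif2s3y arrays (0.0581). Its probe set lay at percentile 99.7 of all genes by mean level, at the top of the scale, and whether that compressed the difference was not tested.

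Tagln, which encodes the actin-binding protein transgelin, read 7.70, 7.37, 7.61 and 7.14 in Yy1 mutants, 7.5, 7.81, 7.89 and 7.79 in Dicer mutants, and 8.52, 8.24, 8.36 and 8.33 in controls. Every mutant array lay below every control. Tagln fell 1.88-fold in Yy1 mutants (log2 difference -0.91, SE 0.121, adjusted p = 0.000426) and 1.53-fold in Dicer mutants (-0.62, adjusted p = 0.00588).

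Cnn1, the intermediate gene, encodes calponin, which binds actin and restrains myosin. It read 7.46, 6.96, 6.98 and 6.38 in Yy1 mutants, 6.34, 6.64, 7.66 and 7.03 in Dicer mutants, and 9.34, 8.61, 8.85 and 8.93 in controls. The mutants covered similar ranges, and the lowest control stood clear of both. Cnn1 fell 3.97-fold in Yy1 mutants (log2 difference -1.99, SE 0.266, adjusted p = 0.000435) and 4.04-fold in Dicer mutants (-2.02, adjusted p = 0.000368).

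The late genes lay at opposite ends. Myh11, the smooth muscle myosin heavy chain, read 8.04, 7.74, 7.73 and 7.48 in Yy1 mutants, 7.37, 7.47, 8.22 and 7.66 in Dicer mutants, and 9.85, 9.73, 9.58 and 9.80 in controls. No mutant array came near the controls. Myh11 fell 3.97-fold in Yy1 mutants (log2 difference -1.99, SE 0.161, adjusted p = 7.29e-06) and 4.16-fold in Dicer mutants (-2.06, adjusted p = 6.82e-06).

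Smtn, which encodes the actin-binding protein smoothelin, read 9.06, 9.08, 9.07 and 8.85 in Yy1 mutants, 9.12, 9.14, 9.08 and 9.08 in Dicer mutants, and 9.31, 9.24, 9.15 and 9.25 in controls. All mutant arrays were below all controls, by margins far smaller than for Myh11. The log2 difference was -0.23 in Yy1 mutants (SE 0.0676, adjusted p = 0.0671) and -0.14 in Dicer mutants (adjusted p = 0.262). The Yy1 comparison passed the threshold in 3 of 22 alternative fits. A dimmer probe set for Smtn averaged 5.87 ± 0.145 in Yy1 mutants, 5.75 ± 0.0939 in Dicer mutants and 5.89 ± 0.104 in controls (SD, n = 4 each), with overlapping arrays.

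Of the genes without a stage, Actg2, the gamma smooth muscle actin, read 8.07, 7.27, 7.83 and 7.40 in Yy1 mutants, 7.67, 7.82, 8.41 and 7.86 in Dicer mutants, and 9.59, 9.51, 9.43 and 9.25 in controls. Mutants and controls were again fully separated. Actg2 fell 3.48-fold in Yy1 mutants (log2 difference -1.80, SE 0.18, adjusted p = 4.55e-05) and 2.83-fold in Dicer mutants (-1.5, adjusted p = 0.00017). So the 2 smooth muscle actins, Acta2 and Actg2, both fell, by log2 differences of -0.38 and -1.80 in Yy1 mutants and of -0.34 and -1.5 in Dicer mutants.

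Synpo2, which encodes an actin-bundling protein of muscle, read 6.34, 6.23, 6.23 and 6.13 in Yy1 mutants, 6.22, 5.80, 6.53 and 6.46 in Dicer mutants, and 7.55, 7.20, 7.36 and 7.48 in controls. The groups did not overlap. Synpo2 fell 2.24-fold in Yy1 mutants (log2 difference -1.16, SE 0.135, adjusted p = 0.000152) and 2.21-fold in Dicer mutants (-1.14, adjusted p = 0.000153).

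Lmod1, a leiomodin that nucleates actin filaments, read 6.36, 6.27, 6.56 and 6.06 in Yy1 mutants, 6.19, 6.16, 6.46 and 6.23 in Dicer mutants, and 7.04, 6.67, 6.56 and 6.63 in controls. Yy1 mutant 3 and control 3 were nearly level. The log2 difference was -0.41 in Yy1 mutants (SE 0.121, adjusted p = 0.0598), and passed the threshold in 5 of 22 alternative fits, among them the one without Yy1 mutant 3 (0.0365). In Dicer mutants Lmod1 fell 1.38-fold (-0.47, adjusted p = 0.0276), a call that was lost without Dicer mutant 1 (0.0618), Dicer mutant 2 (0.0813), Dicer mutant 4 (0.0712) or control 1 (0.0744), without the 3 high-Eif2s3y arrays (0.0867) and without variance moderation (0.0663).

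Des encodes desmin, the intermediate filament of muscle. It read 8.16, 8.26, 7.91 and 8.21 in Yy1 mutants, 8.02, 8.30, 8.13 and 8.14 in Dicer mutants, and 8.36, 8.35, 8.35 and 8.26 in controls. Arrays of both mutants reached into the control range. The log2 difference was -0.19 in Yy1 mutants (95% interval -0.37 to -0.01, adjusted p = 0.22) and -0.18 in Dicer mutants (adjusted p = 0.214), and it passed the threshold in 0 of 22 alternative fits in either comparison, although its unadjusted p in Yy1 mutants was under 0.05, as it was for all 10 genes.

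**Figure D2:**
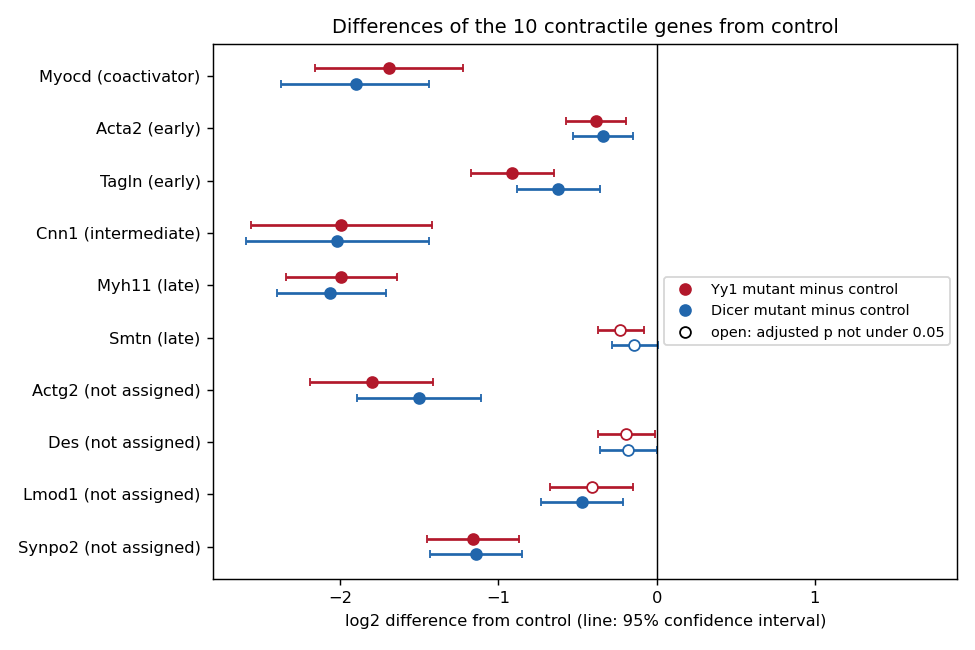
Log2 difference of each contractile gene in Yy1 mutants (red) and Dicer mutants (blue) from controls, with 95% confidence intervals; open points did not pass an adjusted p of 0.05. Cnn1, Myh11, Myocd and Actg2 lie between -1.5 and -2.06, whereas Des and Smtn lie between -0.14 and -0.23.

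Each gene was then set against Myocd on the same arrays, by fitting the gene's log2 value minus that of Myocd. Nearly every gene was called as changing by another amount than Myocd (99.8% of genes in Yy1 mutants and 99.9% in Dicer mutants). No difference from Myocd was called for 0.194% and 0.0586% of genes. A difference that was not called is not evidence of an equal change. Myocd and the other contractile genes were chosen with earlier results known, so the counts that follow are a description and not a test. Of the 9 other contractile genes, 4 were in this class in Yy1 mutants (Myh11, Cnn1, Actg2 and Synpo2) and 3 in Dicer mutants (Myh11, Cnn1 and Actg2). The remaining 5 in Yy1 mutants and 6 in Dicer mutants fell by less than Myocd.

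The difference between the changes of Cnn1 and Myocd was -0.30 in Yy1 mutants (95% interval -0.85 to 0.26, adjusted p = 0.292) and -0.11 in Dicer mutants (adjusted p = 0.693). For Myh11 it was -0.30 in Yy1 mutants (95% interval -0.86 to 0.25, adjusted p = 0.288, and 0.0418 with array weights) and -0.15 in Dicer mutants (adjusted p = 0.592). These intervals still allow a change larger or smaller than that of Myocd. For Actg2 it was -0.11 in Yy1 mutants (95% interval -0.66 to 0.45) and 0.40 in Dicer mutants (-0.15 to 0.96). In Yy1 mutants the sign for Actg2 turned without Yy1 mutant 2 (0.11) and without the 3 high-Eif2s3y arrays (0.13).

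The early genes both fell by less than Myocd. Acta2 differed from Myocd by 1.31 in Yy1 mutants (SE 0.283, adjusted p = 3.85e-06) and by 1.56 in Dicer mutants (adjusted p = 3.62e-08), so that its log2 change was 22.5% and 18.0% of that of Myocd. Tagln differed by 0.78 in Yy1 mutants (adjusted p = 0.00572) and by 1.29 in Dicer mutants (adjusted p = 5.56e-06). The late gene Smtn also fell short of Myocd, by 1.46 in Yy1 mutants (adjusted p = 2.53e-07) and by 1.77 in Dicer mutants (adjusted p = 5.49e-10). The log2 changes of both early genes were smaller than those of the intermediate gene Cnn1 and the late gene Myh11, but the late gene Smtn had the smallest of these 5 in each comparison, so the sizes did not follow the order of stages. Early and late genes were each tested against Myocd, not against each other.

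Synpo2 differed from Myocd by 0.53 in Yy1 mutants (adjusted p = 0.0625) and by 0.76 in Dicer mutants (adjusted p = 0.00723). The Yy1 comparison passed the threshold in 6 of 22 alternative fits, among them those without Yy1 mutant 2 (0.0447), Dicer mutant 1 (0.0164) or Dicer mutant 3 (0.0413). Lmod1 differed by 1.28 in Yy1 mutants and 1.44 in Dicer mutants, and Des by 1.5 in Yy1 mutants and 1.72 in Dicer mutants. Because the noise of Myocd enters every gene of this fit, the moderated SE was 0.283 for all of them. With each gene's own variance instead, 1 call among the 9 genes changed, that of Synpo2 in Yy1 mutants (adjusted p = 0.0359). That fit gave larger adjusted p for Acta2 (0.000426 in Yy1 mutants and 0.000155 in Dicer mutants) and Smtn (0.000362 and 0.00014). For Tagln it gave 0.00201 in Yy1 mutants and 0.000144 in Dicer mutants. The intervals of Cnn1 and Myh11 in Yy1 mutants narrowed to -0.64 to 0.04 each. The own SE was smaller than the moderated one, at 0.228 for Acta2 and 0.243 for Smtn in both comparisons. The smallest adjusted p-values above thus rest on the degrees of freedom of the moderated fit, which pools all genes, and not on a smaller SE.

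**Figure D3:**
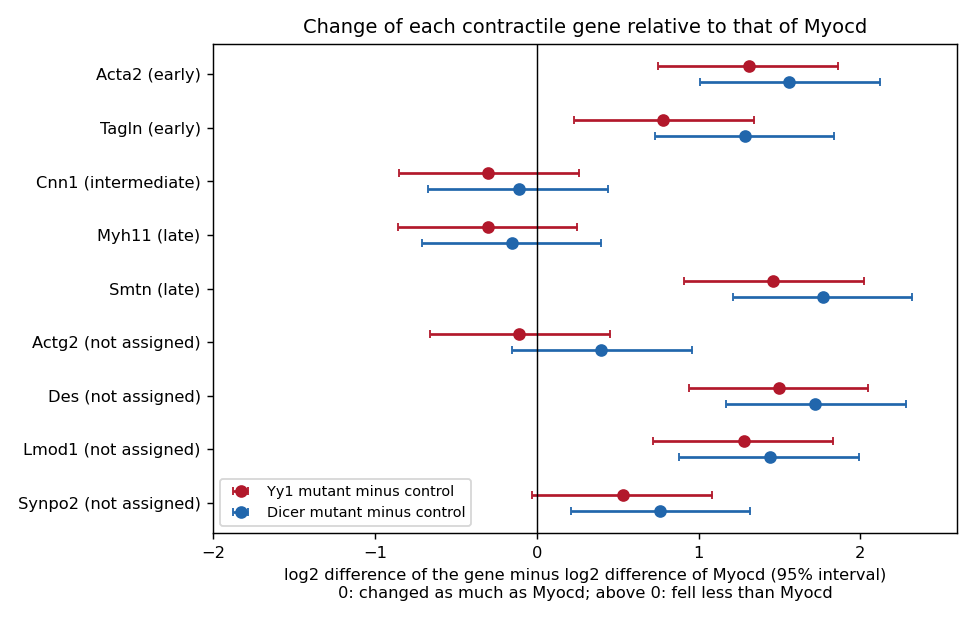
Log2 change of each contractile gene minus that of Myocd in Yy1 mutants (red) and Dicer mutants (blue), with 95% confidence intervals; 0 means as large a change as that of Myocd, and values above 0 a smaller fall. Cnn1, Myh11 and Actg2 have intervals that include 0, whereas Acta2, Smtn, Des and Lmod1 lie between 1.28 and 1.77.

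The mutants were compared with each other directly as well. Of the 10 contractile genes, 0 were called by limma between Yy1 mutants and Dicer mutants, where 4.96% of all genes were called in either direction, and 1 had an unadjusted p under 0.05. That gene was Tagln, with a log2 difference of -0.29 (95% interval -0.55 to -0.03, adjusted p = 0.223). Myocd differed by 0.21 (95% interval -0.25 to 0.68), Myh11 by 0.06 (-0.28 to 0.41), Cnn1 by 0.03 (-0.55 to 0.60) and Actg2 by -0.30 (-0.68 to 0.09). Of the changes relative to Myocd, 0 of 9 were called between the mutants, where 0.564% of all genes were.

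Arrays of a genotype tended to keep their place across the contractile genes. Yy1 mutant 4 was the lowest Yy1 mutant array for 8 of the 10 genes and Yy1 mutant 1 the highest for 5. Dicer mutant 1 was the lowest Dicer mutant array for 7 genes and Dicer mutant 3 the highest for 7. Control 1 was the highest control for 9. Since Myocd, Acta2, Tagln and Cnn1 are also transcribed in embryonic heart muscle, 16 heart muscle markers were measured, and 0 of them were called in either comparison. Of all genes, 6.61% were called in either direction in Yy1 mutants and 8.75% in Dicer mutants. Their mean level was 6.63, 6.94, 6.54 and 6.23 in Yy1 mutants, 6.11, 6.49, 7.28 and 6.84 in Dicer mutants, and 6.43 to 6.56 in controls. The heart list was thus lowest in Yy1 mutant 4 and Dicer mutant 1 and highest among Dicer mutants in Dicer mutant 3, as were most contractile genes, and its part in the spread among mutant arrays was not tested. Heart levels in mutants lay on both sides of those in controls, and the part of heart tissue in the contractile gene values was not tested.

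By likeness of profile, measured as the root mean square difference from Myocd over the 12 arrays after each gene was centred on its own mean, Cnn1 ranked first and Myh11 next of 22179 genes, each at 0.222. Actg2 ranked 7, Synpo2 12, Tagln 52, Lmod1 182 and Acta2 338, while Des ranked 1671 and Smtn 1762. The 5 most similar genes outside the contractile set were Sema3e (0.287), Homer2 (0.329), Scnn1g (0.336), Sox2 (0.342) and Smoc2 (0.364). Sox2, a transcription factor of the proximal airway epithelium, had log2 differences of -1.23 in Yy1 mutants and -2.0 in Dicer mutants. The 12 arrays fall into 3 genotypes, so they are not independent points, and the ranking is a description.

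Of 26 other genes of the smooth muscle cytoskeleton that were measured, 5 fell in Yy1 mutants and 5 in Dicer mutants, with 0 higher and a median log2 difference of -0.10 in each. Of all genes, 3.84% fell in Yy1 mutants and 3.97% in Dicer mutants. Kcnmb1, a subunit of a calcium-activated potassium channel of smooth muscle, fell by 0.75 in Yy1 mutants (adjusted p = 0.00587) and by 0.88 in Dicer mutants (0.00168). Myl9, a myosin regulatory light chain, fell by 0.68 in Yy1 mutants (0.00539) and by 0.53 in Dicer mutants (0.0207). The Myl9 call in Dicer mutants was lost without control 1 (0.0578) or control 3 (0.0626) and without variance moderation (0.0574), and that in Yy1 mutants without the 3 high-Eif2s3y arrays (0.0837). Without those 3 arrays the genes of this list that fell numbered 1 in Yy1 mutants and 3 in Dicer mutants.

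Relatives of the contractile genes from other cell types, such as cytoplasmic actins, non-muscle myosins and other calponins, numbered 15. Of these, 1 fell in each comparison, Cnn2, with log2 differences of -0.32 in Yy1 mutants (adjusted p = 0.0138, 0.133 without the 3 high-Eif2s3y arrays) and -0.38 in Dicer mutants (0.00397). The median log2 difference of these relatives was -0.05 in Yy1 mutants and -0.06 in Dicer mutants. A count of 1 in 15 is not far from the share of all genes that fell, 3.84% in Yy1 mutants and 3.97% in Dicer mutants.

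Of 23 measured regulators of smooth muscle genes, 3 rose and 1 fell in Yy1 mutants, and 4 rose and 1 fell in Dicer mutants. Of all genes, 2.77% rose and 3.84% fell in Yy1 mutants, and 4.78% rose and 3.97% fell in Dicer mutants. Srf, which encodes serum response factor, and Mrtfa, another of its coactivators, were singled out after their values were seen. Srf differed by -0.22 in Yy1 mutants (adjusted p = 0.205) and by -0.15 in Dicer mutants (0.373), and Mrtfa by -0.10 in Yy1 mutants (0.563) and by -0.11 in Dicer mutants (0.473). Mrtfb, the close relative of Mrtfa, differed by 0.20 in Yy1 mutants (0.0563, under 0.05 in 6 of 22 alternative fits) and rose by 0.30 in Dicer mutants (0.00479), a call that was lost with the mean of all probe sets (0.257). Gata6, a transcription factor of lung epithelium and smooth muscle, rose by 0.41 in Yy1 mutants (0.00285) and by 0.64 in Dicer mutants (7.39e-05). Klf5, which is expressed in epithelium and in immature smooth muscle, fell by 0.69 in Yy1 mutants (0.00492, 0.0648 without the 3 high-Eif2s3y arrays) and by 0.86 in Dicer mutants (0.000972). Tcf21 rose by 0.35 in Yy1 mutants (0.0193) and by 0.30 in Dicer mutants (0.037). Prrx1 rose by 0.46 in Yy1 mutants (0.0114) and differed by 0.07 in Dicer mutants (0.76). Cited2 differed by 0.24 in Yy1 mutants (0.161) and rose by 0.51 in Dicer mutants (0.0037).

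A list of 23 genes of signalling to airway smooth muscle held receptors and targets as well as ligands. Of these genes, 8 fell and 3 rose in Yy1 mutants, and 7 fell and 2 rose in Dicer mutants. The shares of all genes were 3.84% lower and 2.77% higher in Yy1 mutants, and 3.97% lower and 4.78% higher in Dicer mutants. Shh, made by the epithelium, and its target Gli1 were chosen after their values were seen. Shh fell by 0.47 in Yy1 mutants (adjusted p = 0.00778, 0.0779 without the 3 high-Eif2s3y arrays) and by 0.37 in Dicer mutants (0.0251). By mean level Shh lay low, at percentile 37.8 of all genes. The Shh call in Dicer mutants was lost without Dicer mutant 2 (0.0772), Dicer mutant 4 (0.0706), control 1 (0.0754) or control 2 (0.0589), without the 3 high-Eif2s3y arrays (0.111) and in a fit of the 2 groups alone (0.0601). Gli1, a transcription factor and target of Shh signalling, differed by -0.03 in Yy1 mutants (0.903) and by -0.19 in Dicer mutants (0.105, but 0.0305 without control 2 and 0.0248 with array weights). Ptch1, the receptor and a target of Shh signalling, fell by 0.64 in Yy1 mutants (adjusted p = 0.000344) and by 0.53 in Dicer mutants (0.00127). Hhip, another target that binds Shh, fell by 1.96 in Yy1 mutants (2.5e-06) and by 0.75 in Dicer mutants (0.00449), and the mutants differed from each other by -1.20 (Yy1 minus Dicer, 0.00022). Fgf10, a growth factor of the distal mesenchyme whose cells include precursors of airway smooth muscle, rose by 0.88 in Yy1 mutants (0.000956) and by 0.69 in Dicer mutants (0.00478). Bmp4, which signals in the distal lung, had log2 differences of 0.29 in Yy1 mutants (0.0641) and 0.73 in Dicer mutants (0.000161). Tnc fell by 0.78 in Yy1 mutants (0.0339) and by 1.28 in Dicer mutants (0.00141). Fgfr2 fell by 0.84 (0.000209) and Wnt7b by 0.55 (0.00101) in Yy1 mutants only. In Dicer mutants Wnt5a fell by 0.74 (0.00458) and Wnt11 by 0.60 (0.000683). In Yy1 mutants they differed by -0.35 (0.175) and by -0.26 (0.0977), and were not called. Between the mutants (Yy1 minus Dicer) Wnt5a was not called (0.39, 0.151), whereas Wnt11 was (0.34, 0.0366). Pdgfra rose by 0.67 in Yy1 mutants only (2.41e-05). Without the 3 high-Eif2s3y arrays, 4 genes of this list fell and 2 rose in Yy1 mutants.

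The contractile genes are made by airway and vascular smooth muscle alike, and whole lung RNA holds both. Of 5 markers of airway smooth muscle, Hhip and Lgr6 fell in both comparisons, Lgr6 by 0.92 in Yy1 mutants (adjusted p = 1.42e-05) and by 1.16 in Dicer mutants (2.54e-06), and the other 3 (Chrm2, Chrm3 and Nog) were not called. Of 14 markers of vascular mural cells, 0 fell, while 2 rose in Yy1 mutants and 3 in Dicer mutants. Of all genes, 3.84% fell and 2.77% rose in Yy1 mutants, and 3.97% fell and 4.78% rose in Dicer mutants. In a list of 14, 0 that fell is near those shares, and whether vascular smooth muscle changed was not tested. Rgs5, a pericyte gene, rose by 1.01 in Yy1 mutants (0.00222) and by 0.67 in Dicer mutants (0.0229). The Rgs5 call in Dicer mutants was lost without Dicer mutant 2, 3 or 4 and without control 3 or 4, at adjusted p of 0.0621 to 0.0762, without the 3 high-Eif2s3y arrays (0.128), with the mean of all probe sets (0.111), in a fit of the 2 groups alone (0.0654) and without variance moderation (0.07). The mean of the vascular list ran from 7.84 to 8.30 in Yy1 mutants, from 8.09 to 8.29 in Dicer mutants and from 7.96 to 8.19 in controls. The mean of the 10 contractile genes ran from 7.60 to 8.04 in Yy1 mutants, from 7.65 to 8.17 in Dicer mutants and from 8.86 to 9.08 in controls.

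Other tissue components moved with these genes. For the counts below, 3.84% of all genes fell and 2.77% rose in Yy1 mutants, and 3.97% fell and 4.78% rose in Dicer mutants. Of 14 epithelial markers 12 fell in Yy1 mutants and 10 in Dicer mutants, among them Cldn6, a tight junction protein, by 0.93 in Yy1 mutants and by 0.81 in Dicer mutants. Their mean ran from 7.93 to 8.22 in Yy1 mutants, from 8.10 to 8.38 in Dicer mutants and from 8.66 to 8.85 in controls. Of 13 markers of lung mesenchyme, 5 rose in Yy1 mutants and 6 in Dicer mutants, among them the matrix gene Dcn by 0.69 in Yy1 mutants and by 0.88 in Dicer mutants. Without the 3 high-Eif2s3y arrays, 3 mesenchymal markers rose in each comparison, and 10 epithelial markers fell in Yy1 mutants and 5 in Dicer mutants. Of 13 skeletal muscle markers 1 rose in Yy1 mutants and 0 were called in Dicer mutants, and of 9 gut tube markers 0 were called in either. The part of tissue composition in the contractile genes was not tested.

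**Figure D4:**
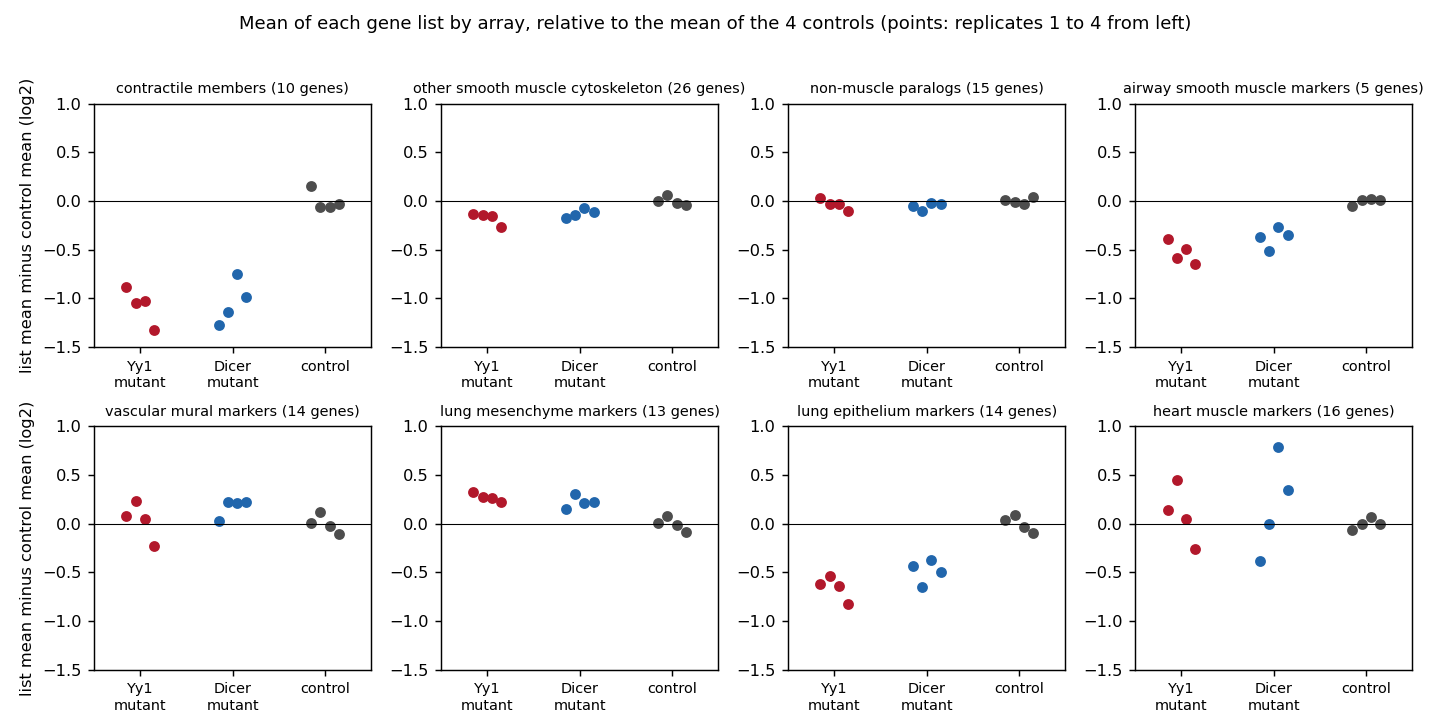
Mean log2 level of each gene list by array, relative to the mean of the 4 controls, with Yy1 mutants (red), Dicer mutants (blue) and controls (grey) from left to right. The contractile genes and the epithelial markers lie below controls on all mutant arrays, the mesenchymal markers above them, and the heart markers spread on both sides of 0.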

How the data were processed

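Total RNA from lungs of 12 embryonic specimens, 4 per genotype, was labelled with biotin and hybridised to Affymetrix arrays of 1 colour, per the labels. The authors deposited 1 table of normalised log2 expression values. Base 2 is inferred from their range of 1.10 to 13.6, and how they were normalised, with which software and on which array design is not given in the sources used here. Depth does not apply to arrays, and their number limits the precision.

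Of 41345 probe sets, the 23521 with 1 gene symbol in the platform annotation were used, with the highest mean probe set per gene, which left 22180 genes. All 3 genotypes were fitted together with limma 3.58.1 in R 4.3.3 (9 residual degrees of freedom, empirical Bayes, two-sided), with Benjamini-Hochberg adjustment over all genes and a call at adjusted p under 0.05. The same fit was run on each gene minus Myocd within the array. There the moderation gave every gene the same variance, with degrees of freedom pooled over all genes. The labels do not say whether replicate numbers pair the samples. Deviations of same-numbered arrays correlated between -0.161 and 0.19, with 3 of 12 over 0.1. Arrays of different number were not compared, so this check cannot decide on pairing. Tables and plots were made with Python 3.11.15, pandas 2.3.3, numpy 2.4.6 and matplotlib 3.10.9.

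The members and gene lists were chosen with earlier results of these data known. Named genes are the members, up to 3 genes of smallest p per mutant of each list (6 for regulators and signals) and the 5 genes nearest to Myocd; Srf, Mrtfa, Shh, Gli1 and Chrm2 fall outside this rule. Alternatives were equal array medians, quantile normalisation, averaged probe sets, removal of the dimmest 30%, an intensity trend, only the groups compared, array weights, a replicate block and each array left out. Fits without the 3 arrays high in Y-linked Eif2s3y, and without variance moderation, were added after the data were seen.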

Additional observations from a re-analysis of the deposited data

Results flagged for a closer look

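Among the 10 contractile genes in 3 genotypes, 30 groups of 4 arrays were checked for an array that stands apart, and chance alone marks about 1 in 20 groups. Smtn in Yy1 mutant 4 read 8.85, below the other Yy1 mutants at 9.06 to 9.08. Des in control 4 read 8.26, below the other controls at 8.35 to 8.36.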

How the results depend on the processing

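The 7 contractile genes called lower in Yy1 mutants numbered 6 to 7 when 1 array was left out and 6 to 9 under the other alternatives, and the 8 in Dicer mutants 6 to 8 under both kinds. Single contractile genes lost a call in 4 of 220 refits in Yy1 mutants and 13 of 220 in Dicer mutants, and gained one in 8 and 0. The other lists' counts moved by over 1.5 times in 36 of 484 refits in Yy1 mutants and 29 of 484 in Dicer mutants. Genes whose change differed from that of Myocd numbered 5 to 7 in Yy1 mutants and 6 in Dicer mutants, and 0 between the mutants under every alternative run. With the replicate block the counts lower were 7 and 8, and calls over all genes 1301 in Yy1 mutants, 1848 in Dicer mutants and 997 between the mutants. The block changed no call of a contractile gene, and whether the numbers pair the samples is not known. Calls over all genes between the mutants numbered 435 without the 3 high-Eif2s3y arrays, 726 without Dicer mutant 4 and 1806 with array weights, against 1101, and without Dicer mutant 4 those in Dicer mutants numbered 1275. Signs turned mainly for small differences between the mutants (Yy1 minus Dicer), which were not called. With 1 array left out Myh11 ranged from -0.04 to 0.24, Cnn1 from -0.16 to 0.27, Des from -0.05 to 0.06, Lmod1 from -0.03 to 0.14, Acta2 from -0.11 to 0.03, Synpo2 from -0.17 to 0.07, Myocd from -0.01 to 0.38 and Lmod1 relative to Myocd from -0.26 to 0.04. Des was 0.01 after quantile normalisation, Cnn1 was -0.01 with equal medians and -0.04 with array weights, and Smtn was 0.01 with the mean of all probe sets. Without the 3 arrays Des was 0.04, Lmod1 -0.06 and Synpo2 0.05. With array weights, Acta2, Des, Lmod1 and Smtn relative to Myocd were 0.07, 0.08, 0.02 and 0.05. Against controls, Actg2 relative to Myocd in Yy1 mutants was 0.01 with array weights, 0.13 without the 3 arrays and -0.19 to 0.11 with 1 array left out, and Cnn1 relative to Myocd in Dicer mutants was 0.14 with array weights. Gli1 in Yy1 mutants ranged from -0.08 to 0.0 with 1 array left out. The causes were not tested.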
